A study of Mus musculus with 6 samples.

Results

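The proliferation and DNA replication genes are 36 genes whose products copy DNA or carry a cell through mitosis. They were chosen by gene symbol from a list written for this purpose, with no rule on their values. Earlier results of these data were known when the list was written. All 36 were found among the 21366 genes with a symbol on the array, on 47 probes. Of these genes, 11 act in S phase (the helicase genes Mcm2 to Mcm7, the sliding clamp gene Pcna, and Rrm1, Rrm2, Tyms and Tk1 for the supply of nucleotides) and 25 act in mitosis. RNA was taken from the gastrocnemius, the large calf muscle, of 3 young male mice aged 13 weeks and 3 aged male mice aged 26 months, and each mouse had 1 Agilent array of a single colour. The study's methods give the strain as C57BL/6J, and the labels name no treatment for either group. The comparison asks how RNA of the muscle differs between the ages.

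Skeletal muscle fibres are filled with nuclei that have left the cell cycle for good. Cells that can still divide are few in resting muscle: satellite cells, the stem cells of the fibres, which are mostly quiescent, and endothelial cells, fibroblasts and blood-derived cells between the fibres. In cells that do not divide, the DREAM complex holds cell cycle genes silent. It sits at E2F letters in promoters of many S phase genes and at the cell cycle genes homology region (CHR) in promoters of many mitosis genes, and after entry into the cycle E2F factors turn on the former and B-MYB with FOXM1 the latter. The products of the S phase genes also serve DNA repair and, for ribonucleotide reductase, nucleotide supply outside S phase, whereas most products of the mitosis genes have no well-known task in cells at rest.

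The branches differ in the letters of their promoters. RefSeq promoter windows of GRCm38.p6, from 250 bases before to 50 bases after the start site, were given for 31 of the 36 genes. The windows shown are examples, those of 3 mitosis genes (Ccnb2, Cenpa and Cdca3) and of Mcm6, a helicase gene. Capitals mark the letters searched on both strands: the CHR (TTTGAA), E2F-like letters (TTCGCGC or TTGGCGC) and the CCAAT box (CCAAT). E2F-like letters can overlap their own reverse complement, so that adjoining capitals can hold both.
Ccnb2, chr9:70421505-70421804, minus strand: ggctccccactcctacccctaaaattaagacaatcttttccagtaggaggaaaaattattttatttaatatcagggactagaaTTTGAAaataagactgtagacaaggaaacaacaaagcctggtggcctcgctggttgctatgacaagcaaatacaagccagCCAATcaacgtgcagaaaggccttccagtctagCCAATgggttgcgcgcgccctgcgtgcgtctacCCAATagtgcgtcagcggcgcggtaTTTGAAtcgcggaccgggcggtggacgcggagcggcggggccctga
Cenpa, chr5:30666636-30666935, plus strand: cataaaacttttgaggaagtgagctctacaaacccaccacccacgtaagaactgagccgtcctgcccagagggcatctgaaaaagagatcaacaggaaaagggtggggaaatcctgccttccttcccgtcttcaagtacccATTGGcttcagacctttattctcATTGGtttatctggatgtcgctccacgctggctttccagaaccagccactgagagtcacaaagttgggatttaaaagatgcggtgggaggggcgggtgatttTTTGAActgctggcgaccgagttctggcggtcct
Cdca3, chr6:124829926-124830225, plus strand: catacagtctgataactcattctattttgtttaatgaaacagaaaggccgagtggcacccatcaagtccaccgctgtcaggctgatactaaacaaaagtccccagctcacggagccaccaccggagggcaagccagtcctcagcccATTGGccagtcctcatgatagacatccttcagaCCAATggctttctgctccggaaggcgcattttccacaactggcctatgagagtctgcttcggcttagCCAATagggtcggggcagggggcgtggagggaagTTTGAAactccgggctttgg
Mcm6, chr1:128359656-128359955, minus strand: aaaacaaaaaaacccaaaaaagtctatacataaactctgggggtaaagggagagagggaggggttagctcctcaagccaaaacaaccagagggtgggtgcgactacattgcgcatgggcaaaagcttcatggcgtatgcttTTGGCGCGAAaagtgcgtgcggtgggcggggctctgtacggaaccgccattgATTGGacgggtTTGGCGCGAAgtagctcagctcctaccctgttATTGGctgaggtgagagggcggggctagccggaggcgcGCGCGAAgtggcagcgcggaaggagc
Each of the mitosis genes shown has a CHR downstream of its start site and CCAAT boxes upstream of it. A CHR downstream of the start site was found in 8 of 21 mitosis genes, so in this the 3 genes are not typical. Mcm6 has no CHR, and E2F-like letters lie on both sides of its start site.

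The CHR letters were found in 16 of 21 mitosis genes with a window (76.2%) and in 1 of 10 S phase genes (10%, Mcm2), against 20.2% of 27025 genes. Within the 50 bases after the start site they began in 8 of 21 mitosis genes (38.1%), in 0 of 10 S phase genes and in 2.64% of all genes. E2F-like letters were found in 3 of 21 mitosis genes (14.3%, Mki67, Cdk1 and Ccnb1), in 4 of 10 S phase genes (40%, Mcm3, Mcm5, Mcm6 and Mcm7) and in 4.47% of all genes. The CCAAT box was present in 85.7% of the mitosis genes, 80% of the S phase genes and 41.1% of all genes. A match is a description of the letters in the window, and occupancy of these promoters was not measured.

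The signal was taken as log2 relative to the 75th percentile of its array, so that 0 is the signal at that percentile. A probe is called well above background by the scanner software when its signal stands clear of the local background. Between 48.7% and 53.8% of probes were so on an array, no probe was saturated, and the 75th percentile lay between 209 (young mouse 3) and 310 (aged mouse 1) signal units. Of 10 genes that define skeletal muscle fibres, 9 were well above background on all 6 arrays and Tnni2 was on 5, so that the arrays carry the labelled tissue. Between the ages these 9 differed by a median of -0.17 on the log2 scale (aged minus young). A gene entered the test where 1 of its probes was well above background on 3 or more of the 6 arrays and had a spot without an outlier flag on all 6, which Tnni2 had not on the array of aged mouse 3. This held for 64.8% of genes with a symbol, and for 22 of the 36 proliferation genes, of which 20 were well above background on all 6 arrays with the probe used (all but Kif20a and Ube2c). Of all 20900 genes tested, 18526 were well above background on all 6 arrays.

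The branches also differed in what could be detected at all. Of the 11 S phase genes, 10 could be tested, all but Tyms, the thymidylate synthase gene. Of the 25 mitosis genes, 12 could be tested (48%). On a single array, 10 S phase genes were well above background on each array of both ages, and between 12 and 14 mitosis genes were, with 14, 12 and 12 among young mice 1 to 3 and 13, 12 and 13 among aged mice 1 to 3. The number of detected mitosis genes therefore overlapped between the ages. On all 6 arrays, 44% of the mitosis genes and 90.9% of the S phase genes were detected, against 59.4% of all genes with a symbol.

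Among the genes not detected are several that are most used to mark dividing cells. Top2a, whose product untangles DNA before chromosomes part, gave a signal between 4.52 and 6.47 on the 6 arrays, and was well above background on 0 of them. Ccna2, the cyclin A2 gene, lay between 7.75 and 15.9 signal units, and Cdk1, the kinase that drives mitosis, between 5.59 and 13.6 with the brightest of its 3 probes, both on 0 arrays. The same held for Bub1 of the spindle checkpoint (10 spots of 1 probe), Aurkb, the kinase of the chromosomal passenger complex, Cenpe and Cenpf of the outer kinetochore, the spindle kinesins Kif11 and Kif2c, and Tyms. These 10 genes were not detectable at this signal over background in either group, which gives them a bound and no fold. They are 27.8% of the 36 genes, and 27.7% of all genes with a symbol were likewise well above background on 0 arrays. By branch the share was 36% of the mitosis genes and 9.09% of the S phase genes.

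A further 4 genes rose above background on 1 or 2 arrays. Ccnb1, the cyclin B1 gene, was well above background in young mouse 3 alone, at a signal of 20.7, Bub1b of the spindle checkpoint in young mouse 1 alone, at 18.9, and Nusap1, a spindle microtubule protein, in aged mouse 1 alone, at 24.3. Prc1, which bundles microtubules of the spindle midzone, was well above background in young mouse 1 (30.7) and aged mouse 3 (37.1). The detections are split between the ages, 3 in young and 2 in aged mice, which leaves these genes without a fold.

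**Figure D1:**
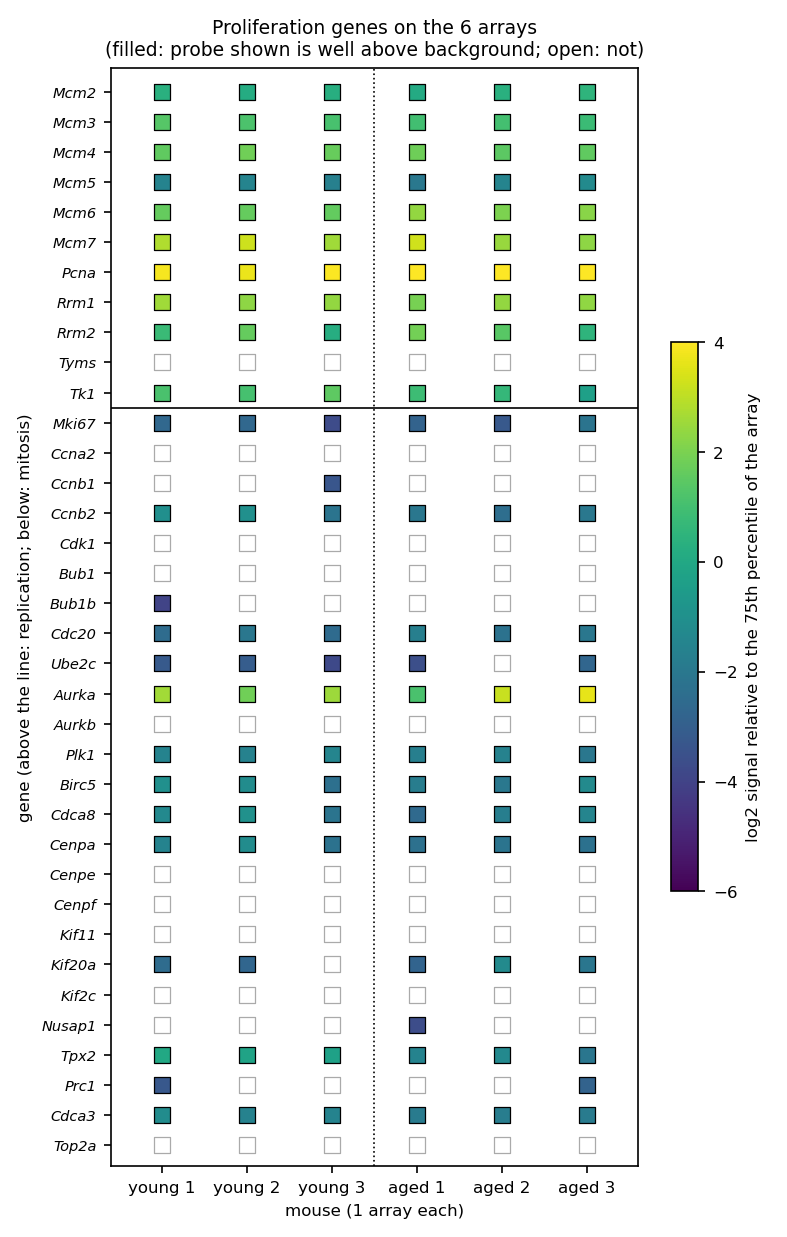
Detection of the 36 genes (rows; S phase genes above the line, mitosis genes below) on the arrays of 3 young and 3 aged mice (columns), where a filled square is a probe well above background, coloured by its log2 signal relative to the 75th percentile of the array, and an open square is one that is not, for the probe tested or, in genes not tested, the brightest probe. The S phase genes are filled on all 6 arrays except Tyms, and 12 of the 25 mitosis genes pass the filter of 3 arrays.

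None of the 22 genes tested passed an adjusted p under 0.05 between aged and young mice in limma, where 53 of 20900 genes did (0.254%). The lowest adjusted p was 0.0836, for Tpx2. At an unadjusted p under 0.05 there were 4 genes (18.2% of 22, against 14.4% of all genes tested). Mcm6 was higher in aged mice, as were 6.07% of all genes at this p, and Tpx2, Cdca3 and Tk1 were lower, as were 8.36% of all genes. The groups did not overlap for 7 genes (31.8%, against 21.8% of all genes tested). The aged mice were above the young mice for Mcm6 and Pcna (7.92% of all genes) and below them for Tpx2, Cdca3, Plk1, Mcm3 and Tk1 (13.9% of all genes). With 3 mice a group, an exact two-sided permutation test of a single gene cannot give a p below 0.1. The mean was lower in aged mice for 14 of the 22 genes and higher for 8, while 56.9% of all genes tested were lower. The median log2 fold change was -0.12 over the 22 genes, -0.04 over the 10 S phase genes (6 lower) and -0.22 over the 12 mitosis genes (8 lower), beside -0.06 over all genes tested. In whole muscle, fewer cells of a type and less RNA per cell cannot be told apart.

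**Figure D2:**
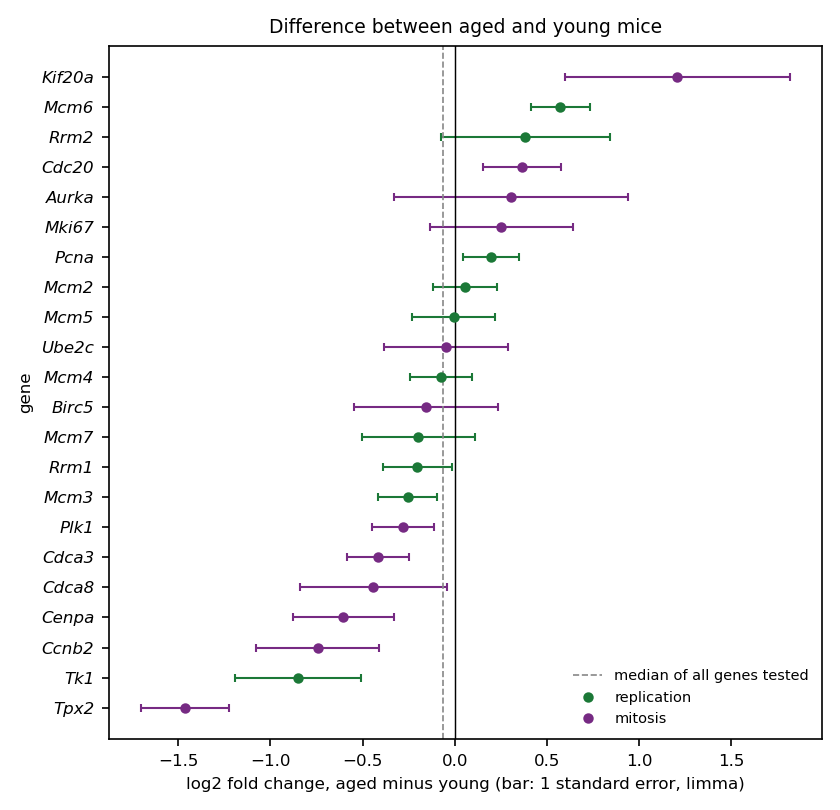
Log2 fold change (aged minus young mice, horizontal axis) of the 22 genes tested, ordered by it, with bars of 1 standard error from limma and a dashed line at the median of all genes tested. The S phase genes (green) lie between -0.85 for Tk1 and 0.57 for Mcm6, and the mitosis genes (purple) spread further, from -1.46 for Tpx2 to 1.21 for Kif20a.

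The replicative helicase is a ring of 6 subunits, Mcm2 to Mcm7, which unwinds DNA ahead of the fork, and all 6 genes were well above background on all 6 arrays. Mcm6 (NM_008567) stood apart from the others between the ages. In young mice 1 to 3 its log2 signal was 1.65, 1.64 and 1.61, and in aged mice 1 to 3 it was 2.37, 2.03 and 2.22. Every aged mouse was above every young mouse, and the young mice differed by less than 0.1 on this scale. The difference was 0.57 (standard error 0.16), or 1.49-fold, with an adjusted p of 0.205 in limma.

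Of the other helicase genes only Mcm2 was also higher in aged mice, by 0.06. Mcm3 (NM_008563) was 1.36, 1.15 and 1.08 in young and 0.98, 1.02 and 0.83 in aged mice, a difference of -0.25 (standard error 0.16, adjusted p = 0.50 in limma). All aged mice were below all young mice here, although the nearest of them were close. Mcm7 (NM_008568) was 2.82, 3.22 and 2.58 in young and 3.27, 2.47 and 2.28 in aged mice, with aged mouse 1 the highest of the 6 and the other aged mice the lowest, and a difference of -0.20 (standard error 0.31). Mcm2, Mcm4 and Mcm5 overlapped between the ages, with differences of -0.08 for Mcm4 and -0.01 for Mcm5. Mcm5 varied more among aged mice (-1.58 ± 0.38, SD, n = 3) than among young mice (-1.57 ± 0.10, SD, n = 3). Thus 4 of the 6 genes of this complex were lower and 2 higher, though Mcm2 turned lower with median scaling and Mcm5 turned higher with normexp, and apart from Mcm6 none differed between the ages by more than Mcm3 did.

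Pcna (NM_011045), the clamp that holds DNA polymerase on its template and is also used in repair, was 3.88, 3.70 and 3.94 in young and 4.08, 4.0 and 4.02 in aged mice. The aged mice lay just above the young mice without overlap, by 0.20 (standard error 0.15, adjusted p = 0.576 in limma), or 1.15-fold.

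Ribonucleotide reductase makes deoxyribonucleotides from a large subunit, Rrm1, and a small subunit of S phase, Rrm2. Rrm1 (NM_009103) was 2.58, 2.31 and 2.39 in young and 1.95, 2.38 and 2.34 in aged mice, so that aged mouse 1 was the lowest and the others overlapped, with a difference of -0.20 (standard error 0.19). Rrm2 (NM_009104) was 0.77, 1.62 and 0.24 in young and 1.88, 1.41 and 0.49 in aged mice. It varied more among mice of one age than between the ages, with a difference of 0.38 (standard error 0.46). It was 0.07 without young mouse 3 or without aged mouse 1, 0.77 without aged mouse 3 and 1.0 with the slide row as a block.

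Tk1 (NM_009387), the thymidine kinase of dividing cells, was 1.14, 1.04 and 1.53 in young and 0.86, 0.66 and -0.36 in aged mice. No aged mouse reached the lowest young mouse, and aged mouse 3 lay far below the other aged mice. The difference was -0.85 (standard error 0.34), or 0.554-fold, with an adjusted p of 0.329 in limma, and without aged mouse 3 it was -0.48. Over all alternatives it lay between -1.09 and -0.38, the latter with the slide row as a block.

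**Figure D3:**
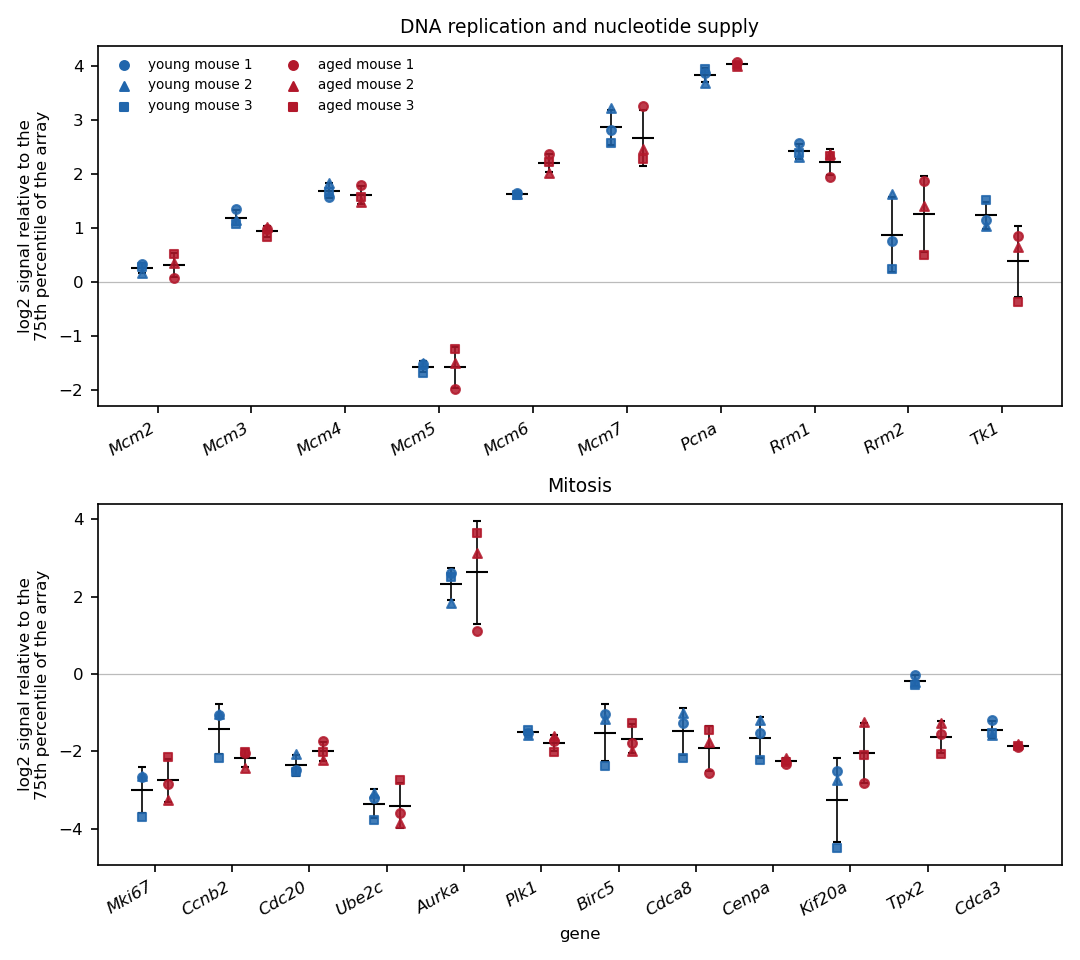
Log2 signal relative to the 75th percentile of the array (vertical axis) of the 10 S phase genes (top) and 12 mitosis genes (bottom) tested, with 1 point per young (blue) or aged (red) mouse and black bars at the mean ± SD of 3 mice. The aged mice lie above the young mice for Mcm6 and Pcna, and below them for Mcm3, Tk1, Plk1, Tpx2 and Cdca3.

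Among the mitosis genes, Tpx2 was the lowest in aged mice relative to young mice. Tpx2 (NM_028109) encodes the protein that activates Aurora A and places it on the spindle. Its log2 signal was -0.01, -0.21 and -0.28 in young and -1.54, -1.28 and -2.08 in aged mice. The lowest young mouse lay nearly 1 log2 unit above the highest aged mouse. The difference was -1.46 (standard error 0.24), or 0.363-fold, with an adjusted p of 0.0836 in limma. Its other probe, for the transcript NM_001141977, was well above background on 0 arrays. Aurka (NM_011497), the kinase that Tpx2 activates, was 2.63, 1.85 and 2.52 in young and 1.12, 3.15 and 3.64 in aged mice. Aged mouse 1 was the lowest of the 6 and the other aged mice the highest, so that the mean difference of 0.30 (standard error 0.64) hides a spread of 1.34 (SD, n = 3) among aged mice. Without aged mouse 1 it was 1.06, and with the slide row as a block, which sets aged mouse 1 alone against the young mice, it was -1.22 (adjusted p = 0.325 in limma).

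Cdca3 (NM_013538), which helps to remove the mitotic inhibitor Wee1, was -1.19, -1.59 and -1.52 in young and -1.88, -1.80 and -1.87 in aged mice. The aged mice lay close together and below every young mouse, by 0.42 on the log2 scale (standard error 0.17, adjusted p = 0.335 in limma). After normexp background correction the difference was -0.14. Plk1 (NM_011121), a kinase of mitotic entry and spindle poles, was -1.52, -1.56 and -1.44 in young and -1.73, -1.61 and -2.02 in aged mice. Here too the groups did not overlap, with a difference of -0.28 (standard error 0.17, adjusted p = 0.486 in limma), and it was -0.07 after normexp.

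Cyclin B2 and the centromere histone had the next lowest differences, but young mouse 3 lay with the aged mice in both. Ccnb2 (NM_007630), the only one of the 4 genes of mitotic cyclins and Cdk1 that could be tested, was -1.06, -1.03 and -2.16 in young and -2.05, -2.43 and -2.01 in aged mice. Its difference was -0.74 (standard error 0.33, adjusted p = 0.373 in limma), and -1.12 without young mouse 3 (adjusted p = 0.177). It was -0.41 after normexp, and at its weakest -0.55 with another mouse left out. Cenpa (NM_001302132), the histone H3 variant on which kinetochores form, was -1.52, -1.19 and -2.22 in young and -2.33, -2.16 and -2.26 in aged mice. Its difference was -0.60 (standard error 0.27, adjusted p = 0.376 in limma), and -0.89 without young mouse 3 (adjusted p = 0.228). It was -0.39 after normexp, and at its weakest -0.38 with another mouse left out. In both genes the aged mice lay within a narrow range and young mice 1 and 2 well above it.

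The chromosomal passenger complex brings Aurora B to centromeres and the midzone through survivin (Birc5) and borealin (Cdca8). Birc5 (NM_001012273) was -1.02, -1.16 and -2.37 in young and -1.78, -1.98 and -1.25 in aged mice, and Cdca8 (NM_026560) -1.27, -0.998 and -2.16 in young and -2.57, -1.76 and -1.44 in aged mice. The groups overlapped in both, with differences of -0.16 (standard error 0.39) and -0.44 (standard error 0.40), and young mouse 3 was again the lowest young mouse. For Cdca8 the difference was -0.12 without aged mouse 1, -0.20 without young mouse 2, -0.78 without young mouse 3 and -1.09 with the slide row as a block. Its other probe, well above background on 1 array, was higher in aged mice by 0.92. The other probes of Birc5, well above background on 0 arrays, were higher by 0.41 and 0.38.

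Of the genes of the anaphase promoting complex, Cdc20 (NM_023223), its activator, was -2.49, -2.05 and -2.54 in young and -1.74, -2.23 and -2.02 in aged mice, a difference of 0.36 (standard error 0.21, adjusted p = 0.472 in limma). After normexp it was 0.07, without aged mouse 1 0.24 and with the slide row as a block 0.62. Ube2c (NM_026785), its ubiquitin-conjugating enzyme, averaged -3.35 ± 0.37 (SD, n = 3) in young against -3.40 ± 0.58 (SD, n = 3) in aged mice. Its other kept probe, well above background on 4 arrays, was higher in aged mice by 1.12. The probes of Ube2c therefore gave no common direction.

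Mki67 (NM_001081117), which encodes the antigen Ki-67 found in all phases of the active cycle, was -2.67, -2.64 and -3.70 in young and -2.85, -3.25 and -2.15 in aged mice. The groups overlapped, and the difference of 0.25 (standard error 0.39, adjusted p = 0.790 in limma) turned to -0.09 without young mouse 3 and to -0.05 without aged mouse 3. Its other kept probe, well above background on 3 arrays, was higher in aged mice by 1.07. Kif20a (NM_009004), a kinesin of cytokinesis, was -2.51, -2.75 and -4.50 in young and -2.81, -1.24 and -2.09 in aged mice, a difference of 1.21 (standard error 0.61, adjusted p = 0.417 in limma). It was not well above background in young mouse 3, and without that mouse the difference was 0.58. After normexp, with all mice kept, it was 0.39.

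Several mitosis genes thus had the same mouse at the bottom of the young group. Relative to the mean of the young mice, the median log2 signal of the 12 mitosis genes stood at 0.22, 0.33 and -0.50 among young mice 1 to 3 and at -0.36, -0.32 and 0.15 among aged mice 1 to 3. Young mouse 3 and aged mice 1 and 2 lay below the other 3 mice, so the groups overlapped. Young mouse 3 was the lowest young mouse in 9 of the 12 genes (75%), while this held for 29% of all genes tested and for 5 of the 10 S phase genes. In the 38 further mitosis genes described below it was the lowest young mouse in 15 (39.5%), and their median in this mouse, taken in the same way, was -0.03. The count was between 7 and 9 under 10 other settings, and this count was chosen after the values were seen. The median of the 10 S phase genes moved little, at 0.03, -0.02 and -0.03 in young and -0.03, 0.01 and -0.11 in aged mice. The array of young mouse 3 was also the dimmest, with a 75th percentile of 209 against 258 and 300 in the other young mice, and the part of this in the low mitosis genes was not tested.

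**Figure D4:**
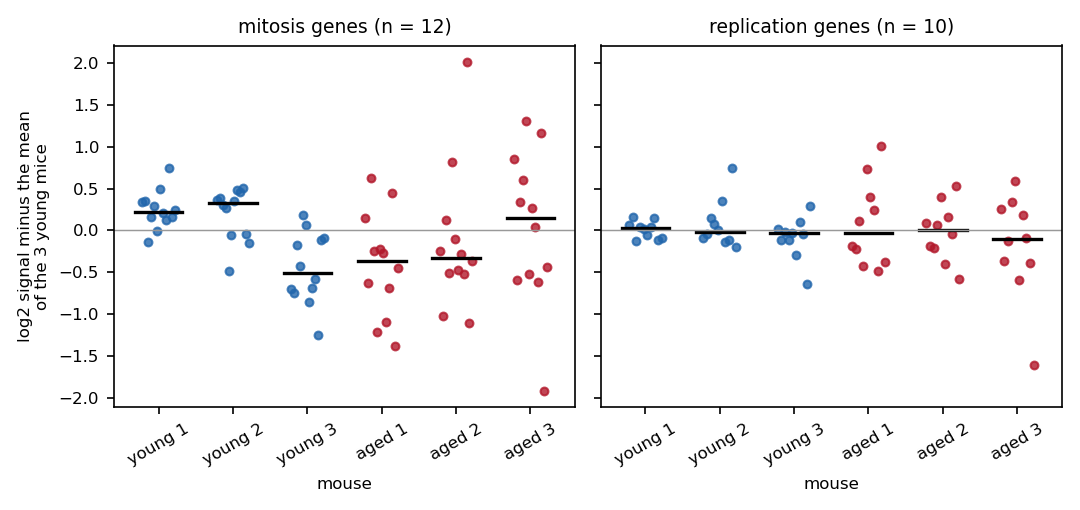
Log2 signal of each gene minus its mean over the 3 young mice (vertical axis), for the 12 mitosis genes (left) and 10 S phase genes (right) in each mouse, with 1 point per gene and a black line at the median. The line of the mitosis genes is at -0.50 in young mouse 3 and -0.36 and -0.32 in aged mice 1 and 2, and the lines of the S phase genes lie between -0.11 and 0.03.

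Other genes of the same machinery were read from lists that do not repeat the 36. Of 56 further replication genes (origin recognition, polymerases, clamp loader and ligase among them), 48 could be tested (85.7%), with a median of -0.07, 19 higher and 29 lower. None passed the adjusted threshold in limma, and 4 higher and 4 lower had an unadjusted p under 0.05 (16.7%, against 14.4% of all genes). Those without overlap as well included Pole2 (1.11, DNA polymerase epsilon), Cdt1 (0.76, which loads the helicase) and Tk2 (0.65, the mitochondrial thymidine kinase), higher in aged mice, and Wdhd1 (-0.57, a fork protein) and Pola2 (-0.45, DNA polymerase alpha), lower, with adjusted p between 0.155 and 0.309 in limma. Pole2 was dim, with a mean of -3.92 in young and -2.81 in aged mice, and was well above background on 5 arrays. Those that could not be tested include Orc1, Cdc6, Gins2, Cdc7, Dbf4 and Clspn, each well above background on 0 arrays.

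Of 73 further mitosis genes, 72 were on the array and 38 could be tested (52.1%), a share near the 48% of the 25 mitosis genes above. Their median was -0.13, with 15 higher and 23 lower, and none passed the adjusted threshold in limma. At an unadjusted p under 0.05, 7 were lower and 2 higher (23.7%, against 14.4% of all genes), and the groups did not overlap for 12 (31.6%, against 21.8%). The 8 genes with the smallest p among those without overlap were Smc4 (-0.64, condensin), Spc25 (-1.18, outer kinetochore), Mad2l1 (-0.54, spindle checkpoint), Racgap1 (-0.56, cytokinesis), Cenpk (-0.58, inner kinetochore), Ccnf (-0.62, cyclin F), H2az1 (-0.48, a histone variant also used outside mitosis) and Tubb5 (0.47, a tubulin of many cell types), with adjusted p between 0.182 and 0.301 in limma. Among the 35 not tested, most were well above background on 0 arrays, Ttk, Nuf2, Aspm, Melk and Kif23 among them.

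**Figure D5:**
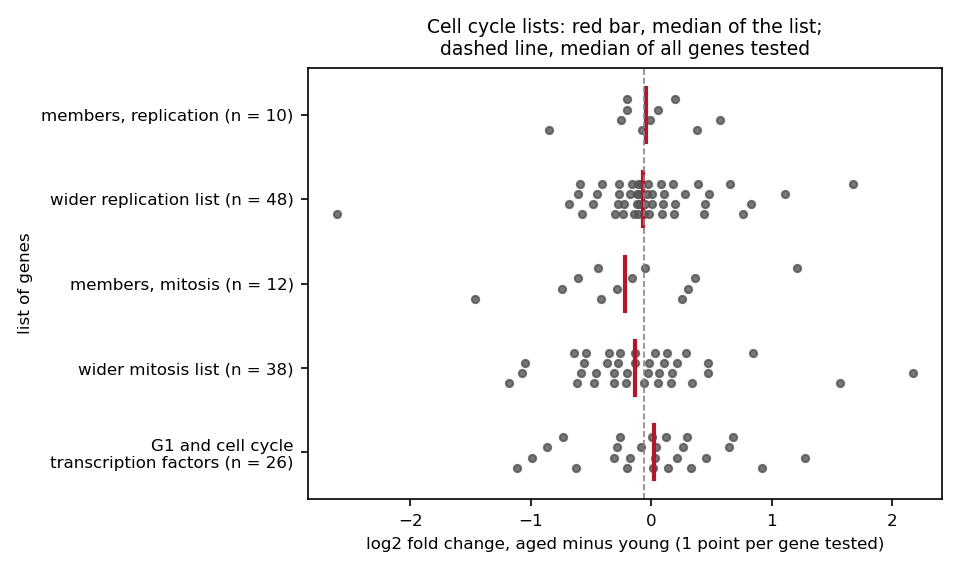
Log2 fold change (aged minus young mice, horizontal axis) of the genes tested in each list (rows), with 1 point per gene, a red bar at the median of the list and a dashed line at the median of all genes tested. The medians are -0.04 and -0.07 for the replication lists, -0.22 and -0.13 for the mitosis lists, and 0.02 for the genes of the G1 phase and of cell cycle transcription.

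Markers of the cells that could divide in muscle were measured on the same arrays. Satellite cell and myoblast genes (9 of 10 tested, Myf5 well above background on 0 arrays) had a median of 0.10, with 5 higher and 4 lower, and a summed level of 210 to 256 times the 75th percentile in young and 227 to 246 in aged mice. Endothelial genes (10 of 10 tested) had a median of -0.34, with 7 lower, and summed to 71.3 to 91.3 in young and 47.5 to 69.4 in aged mice. Fibroblast genes (10 of 10) had a median of -0.22, with 8 lower, and summed to 489 to 548 in young and 257 to 386 in aged mice. A sum follows its brightest probes and is no level of a cell type. Des and Itga7, which mature fibres express too, made up 87.9% to 93.0% of the satellite cell sum, and Dcn 45.5% to 80.8% of the fibroblast sum. Flt1 and Vwf made up 63.8% to 68.8% of the endothelial sum.

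Of blood-derived cells, macrophage genes (11 of 12 tested, Cd163 on 0 arrays) had a median of 0.64, with 9 higher, and summed to 42.0 to 49.5 in young and 47.4 to 49.1 in aged mice. Itgam (-0.26) and Csf1r (-0.05), the 2 macrophage genes that were lower in aged mice, made up 64.3% to 82.1% of the macrophage sum. Lymphocyte genes (6 of 12 tested, Cd3g, Cd8a and Ms4a1 on 0 arrays) had a median of -0.18, with 5 lower and 1 higher (Ptprc, by 1.01). They summed to 6.94 to 7.82 in young and 5.68 to 7.09 in aged mice. Nkg7 and Cd4 made up 74.0% to 78.8% of the lymphocyte sum. Erythroid genes (6 of 12 tested, Epb42 and Rhag among those on 0 arrays) had a median of -1.11, with all 6 lower, and summed to 647 to 931 in young and 294 to 461 in aged mice. Hba-a2 and Hba-a1 made up 86.8% to 90.0% of the erythroid sum. Neutrophil genes (6 of 10 tested, Mpo and Ngp on 0 arrays) had a median of 1.75, with 4 higher (2 of them past the adjusted threshold in limma), and summed to 157 to 161 in young and 169 to 199 in aged mice. Of this sum Csf3r alone made up 85.1% to 99.1%, whereas S100a8 and S100a9 were those past the threshold, higher by 4.80 and 4.70 on the log2 scale. The neutrophil median lies between the differences of Csf3r (0.05) and Retnlg (3.45). Camp (-0.40) and Elane (-0.31) of this list went the other way, with adjusted p of 0.297 and 0.468 in limma. Neither overlapped between the ages, and nor did 3 of the 4 higher genes, so the neutrophil genes gave no common direction. Retnlg, and Fcgr1 (1.63) of the macrophage list, were well above background on 3 arrays each, those of the aged mice. Both thus passed the filter only through the group in which they were higher. Young mouse 3 was the lowest young mouse in 5 of 6 erythroid, 6 of 10 endothelial and 5 of 9 satellite cell genes, in 3 of 11 macrophage and 2 of 10 fibroblast genes, and in 0 of 6 neutrophil genes. The part of any of these cells in the values of the proliferation genes was not tested.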

How the data were processed

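Total RNA of the gastrocnemius of 3 young and 3 aged mice was labelled with Cy3 and hybridised to 1 Agilent array per mouse. The deposited intensity of a spot is the processed signal of Agilent Feature Extraction (9.5 per the labels, 11.0.1.1 per the file headers), from which the authors' software had subtracted background and removed trends within the array, with no scaling between arrays. Values of the deposited series matrix were the same. No test for the arrays is given in the study's methods.

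Of 62976 spots, 59305 were not controls, and 161 to 212 per array were dropped for an outlier flag. Spots of a probe were averaged as log2 signals, from which each array's 75th percentile was subtracted. Of 55681 probes, 12 with only flagged spots on some array were left out, and 28331 were named by RefSeq accession (GRCm38.p6). The array was designed on another build, so gene coordinates are those of the promoter windows only. A gene was represented by its brightest probe among those that passed background clearly (the scanner's call) on 3 or more arrays. The 20900 genes so obtained were fitted in R 4.3.3 with limma 3.58.1 (lmFit, then eBayes, with age alone; Benjamini-Hochberg over all of them, threshold 0.05). The fit was tested on simulated data. The number of arrays limits the precision.

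The members and lists were chosen with earlier results of these data known. Values of every mouse are given at least for genes with an unadjusted p under 0.05, for those without overlap and for the 5 with the brightest probes. Genes of other lists are named where they met the first 2 conditions, at most 8 a list, and some that met them are not reported here. The lists were further replication, further mitosis and G1 genes, 5 histone genes and markers of muscle fibres, satellite cells, macrophages, lymphocytes, endothelium, fibroblasts, erythroid cells and neutrophils. Alternatives were normexp (offset 50, on the median spot signal, since a mean spot signal was not used here), scaling by quantiles, by the median or by the 75th percentile over detected probes, no filter or a filter on all 6 arrays, a gene's mean over its probes, saturated probes kept, a mean-variance trend, values of the series matrix, the slide row or the replicate number as a block, flagged spots kept, and each mouse left out. There was 1 slide and 1 scan.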

Additional observations from a re-analysis of the deposited data

How the results depend on the processing

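Of the 19 alternatives, 2 held the same values, since no probe was saturated and the series matrix equals the files, and the other 17 could differ. The number of proliferation genes past the adjusted threshold in limma was 0 in these 17, and the lowest adjusted p in any of them was 0.0713, for Tpx2. At an unadjusted p under 0.05, 4 genes were counted, and between 2 and 5 in the alternatives. Tpx2 was among them in all 17, with a log2 fold change between -1.64 and -0.92 and an adjusted p between 0.0713 and 0.259 in limma, while Mcm6 (0.43 to 0.73, adjusted p 0.150 to 0.511) was in 16 (not with median scaling), Tk1 in 9 and Cdca3 in 4. Ccnb2 (2 alternatives), Cenpa (3), Aurka (2), Kif20a (2) and Pcna (1, normexp) were also counted in some. Of the 22 genes, the sign turned for 8 in at least 1 alternative and for 14 in none, although several alternatives, the replicate block among them, change the test and not the fold. The sign turned for Mcm5 with normexp (0.0409) and the 75th percentile over detected probes (0.0272), for Mcm2 with median scaling (-0.0924), for Ube2c with the mean of all probes (0.53), and with the slide row as a block for Aurka (-1.22), Mcm2 (-0.18), Mcm4 (0.11) and Mcm7 (0.40). With 1 mouse left out, the range crossed 0 for Mki67 (-0.0944 to 0.50), Ube2c (-0.38 to 0.99), Birc5 (-0.58 to 0.0909), Aurka (-0.20 to 1.06), Mcm2 (-0.0442 to 0.17) and Mcm5 (-0.18 to 0.20). The row block leaves aged mouse 1 alone against the young mice, so that for the other aged mice row and age cannot be told apart. Median scaling moved the median of all genes to -0.21, and with it that of the 22 genes to -0.26, of the S phase genes to -0.19, and of the further replication and mitosis lists to -0.22 and -0.28. With no filter on dim probes the median of the further mitosis genes was -0.0225, and with the row block that of the further replication genes was 0.0372. Without 1 mouse the median of the 22 genes lay between -0.19 and 0.003, the latter without young mouse 2, that of the mitosis genes between -0.37 and -0.09, and that of the S phase genes between -0.08 and 0.004. The number of all genes past the threshold, 53, was 8 with no filter, for which 36710 genes were tested. It was 35 with the filter on all 6 arrays, 1 without aged mouse 3 and 184 without aged mouse 1. Without aged mouse 1, the aged mice left were in another slide row than all young mice, so age and row cannot be told apart in that count. Mice with the same number are different animals, and their deviations from the group means correlated at -0.06, -0.27 and 0.03, so the number pairs no mice. With the replicate block, 5 of all genes and 0 proliferation genes passed the threshold. The causes were not tested. A gene dim on every array has only a bound, which limits what these arrays can say of Top2a, Cdk1 and the other genes not tested.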

Other observations

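Genes upstream of the replication and mitosis branches were read as a further list of G1 cyclins, their kinases and the transcription factors and DREAM subunits of the cell cycle. Of 30 genes, 26 could be tested, with a median of 0.02, 15 higher and 11 lower in aged mice, and none passed the adjusted threshold in limma, while 2 were higher and 5 lower at an unadjusted p under 0.05 (26.9%, against 14.4% of all genes tested). Ccnd3, the cyclin D3 gene, was 3.53 ± 0.17 (SD, n = 3) in young and 2.79 ± 0.09 in aged mice. The difference was -0.74 (standard error 0.16, adjusted p = 0.151 in limma). Ccnd2, the cyclin D2 gene, was 0.34 ± 0.49 in young and -0.64 ± 0.13 in aged mice, a change of -0.99 (standard error 0.26, adjusted p = 0.195 in limma). Lin9 and Lin54, subunits of the complex that binds the CHR, differed by -1.11 and -0.63, and Rb1, the retinoblastoma gene, by 0.64, with adjusted p of 0.190, 0.337 and 0.196 in limma. The groups did not overlap for these 5 genes. Other subunits of the complex that binds the CHR went the other way: Lin37 by 0.33, Lin52 by 0.03 and Rbbp4 by 0.04. Of these, Lin37 did not overlap between the groups (adjusted p = 0.371 in limma). Ccne2, Ccna1, Cdk6 and E2f8 were well above background on 0 arrays.

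Pttg1, the securin gene of the further mitosis list, and Mylpf, a myosin light chain gene of fast muscle, were chosen here after their values were seen. The log2 signal of Pttg1 was 1.46 in young mouse 3, and 6.11 and 6.30 in the other young mice and 6.97, 6.76 and 6.66 in the aged mice. Mylpf was also low in young mouse 3, at 1.96 against 4.93 and 4.52 in the other young mice and 4.97 to 5.20 in the aged mice. The 4 histone genes tested, whose messages of S phase carry no long poly-A tail, had a median of 0.09, with 3 higher and 1 lower in aged mice.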
